A study of Mus musculus with 130 samples.

Results

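The liver transcriptome of male C57BL/6J mice fed 2% carbonyl iron with cellulose as the named fibre was compared with that of male C57BL/6J mice fed a diet sufficient in iron. Each group held 3 mice, so the comparison rests on 6 of the 130 libraries of the series. Its members were the 13560 genes with enough counts to be tested, of 35274 genes in the table. Carbonyl iron is a fine powder of elemental iron used to load the liver through the diet, and here it made up 20000 ppm of the food. The control diet held 50 ppm iron, in a form the labels do not give. No genotype, transgene or drug differed between the groups, and the mice of both are described as one inbred strain, one sex and one tissue. The labels give a fibre source for the iron-loaded diet and none for the 50 ppm diet, so the part of iron and the part of fibre cannot be told apart in this comparison. They give no batch, age, date or feeding time for these mice, and the RNA came from the large lobe of the liver. Another group of 3 male C57BL/6J mice, fed 2% carbonyl iron with no fibre source named, is set beside them where the fibre matters. The numbers 1 to 3 given to the mice of a group are names only and pair no mice.

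Hepatocytes sense iron through bone morphogenetic proteins made by the sinusoidal endothelium, which act on receptors and SMAD proteins in the hepatocyte to raise transcription of hepcidin. Hepcidin is the peptide hormone that removes ferroportin, the iron exporter, from the surface of macrophages and enterocytes. Iron beyond the capacity of ferritin takes part in oxidant chemistry, and NRF2 is the transcription factor that drives much of the antioxidant response. Kupffer cells, the resident macrophages of the liver, take up old red cells and recycle their iron. The male mouse liver also makes large amounts of major urinary proteins and of other transcripts that depend on the male pattern of growth hormone.

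Gene levels are given as CPM, counts divided by the scaled total of their library and set to a common total, in the order mouse 1, 2 and 3. Changes are log2 values of the cellulose diet minus 50 ppm with their standard error (SE), from the quasi-likelihood test of edgeR with Benjamini-Hochberg adjustment over all 13560 genes. Called genes are those whose adjusted p was under 0.05. In all, 4026 genes were called (29.7% of those tested), 2083 higher (15.4%) and 1943 lower (14.3%). The groups did not overlap in 6038 genes (44.5%). Scaling by library size alone moved the median of all genes to 0.119 and the calls to 2779 higher and 1202 lower, so changes smaller than that shift have no firm direction. The 6 libraries held 10420708 to 11989584 counts. Albumin, the main hepatocyte product, stood at 52294, 62051 and 53219.8 CPM with 50 ppm and at 73940.0, 69821 and 70418 CPM with the cellulose diet, and was not called (0.35, SE 0.15, adjusted p = 0.0855), though DESeq2 called it (adjusted p = 0.00419), as did library size alone (adjusted p = 0.0253). Of 13 genes that define hepatocytes, 2 were called higher and 5 lower (median -0.21), with Serpina1c, an alpha-1 antitrypsin, at -1.72 (adjusted p = 9.1e-05) and Apoa1, the main protein of high-density lipoprotein, at -0.80 (adjusted p = 0.000728). All 12 markers of the exocrine pancreas, the neighbouring organ, were too low to test, and 8 of them were at 0 in all 6 mice.

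The gene lists fell into groups that moved in different directions. Lists of Kupffer cells, phagocytes, interferon-stimulated genes, NRF2 targets and the cell cycle held called members in the higher direction alone. Male-biased genes, cholesterol synthesis, fatty acid oxidation, amino acid breakdown and nuclear genes of oxidative phosphorylation held called members in the lower direction alone. Some alternatives called members the other way, up to 3 in fatty acid oxidation, 1 in amino acid breakdown and 1 among NRF2 targets. The median over all genes tested was 0.00. Each list is to be read against the share called, 29.7% in either direction, 15.4% higher and 14.3% lower.

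**Figure D1:**
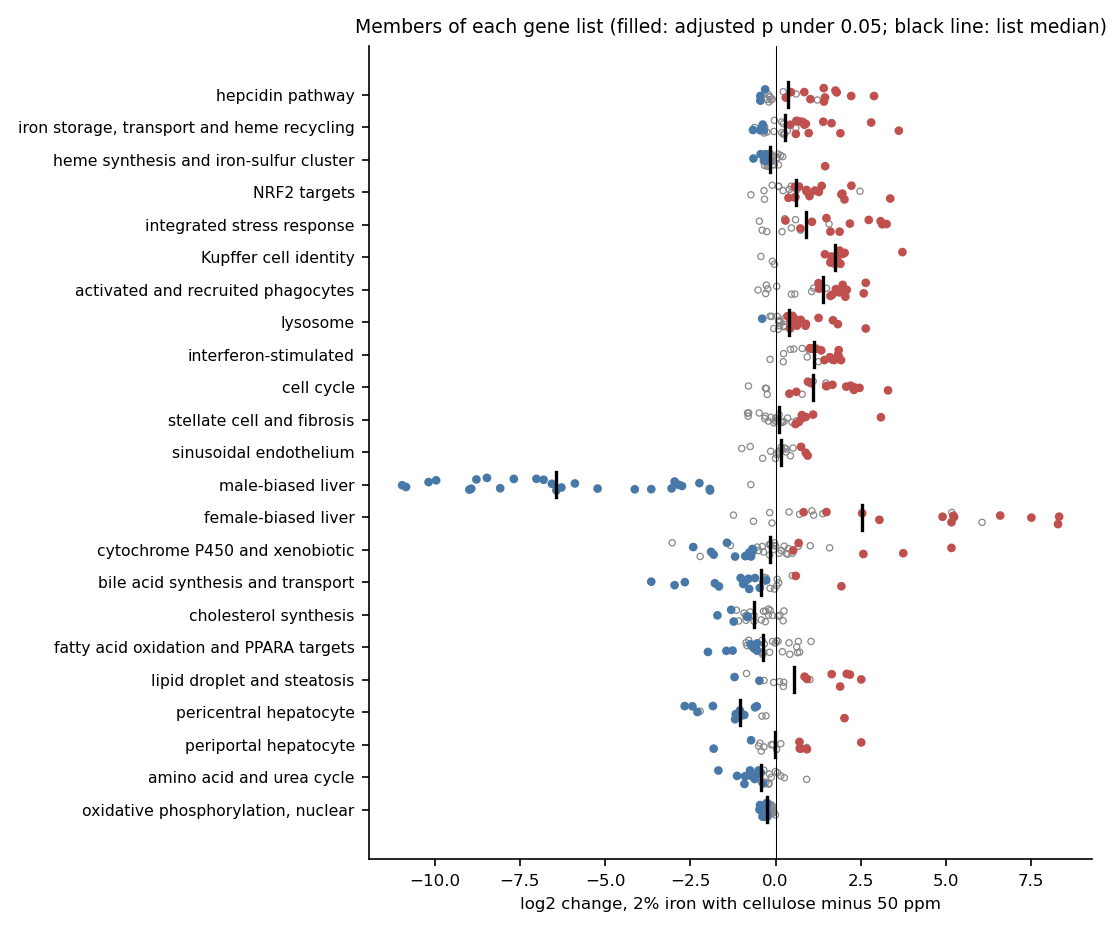
Each point is 1 tested gene of the list named at the left, placed by its log2 change between the cellulose diet and 50 ppm; filled red and blue points passed the test as higher and lower, and black lines mark list medians. The male-biased list (median -6.43) and the Kupffer cell list (median 1.75) lie on opposite sides of 0, and the medians of the sinusoidal endothelium and stellate lists are 0.16 and 0.09.

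In the hepcidin pathway the ligand, the hormone and feedback genes of the SMAD branch were called higher. Of 24 members tested, 11 were called higher and 3 lower (median 0.38), and 1 lower without mouse 2 of the cellulose diet. Bmp6, the endothelial ligand that reports liver iron, stood at 4.07, 7.64 and 5.72 CPM with 50 ppm and at 23.9, 22.2 and 34.9 CPM with the cellulose diet. The lowest mouse of the cellulose diet was above the highest of the 50 ppm diet, and the difference was 4.65-fold (2.22, SE 0.24, adjusted p = 6.26e-05). Hamp, which encodes hepcidin, stood at 203, 384 and 240.4 CPM with 50 ppm and at 809, 726 and 679 CPM with the cellulose diet. Its groups did not overlap either, and it rose 2.67-fold (1.42, SE 0.30, adjusted p = 0.00382). Hamp2, the neighbouring mouse copy whose product has a less clear part in iron balance, stood at 17.5, 34.9 and 30.3 CPM and at 65, 88.1 and 134 CPM (1.79, SE 0.61, adjusted p = 0.0388). The call of Hamp2 was kept without mouse 1 of the cellulose diet and lost without any other mouse, with adjusted p from 0.0466 to 0.135 over the 6 omissions.

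Hamp (GRCm38, chromosome 7, 30942368 to 30944032, minus strand) and Hamp2 (chromosome 7, 30922372 to 30924681, minus strand) lie side by side, and their proximal promoters are shown because both transcripts were higher and near-identical copies can share reads. The 150 bases before each RefSeq start (GRCm38.p6) are printed 5′ to 3′, with GGCGCC in capitals, the core of the BMP-responsive element described for the hepcidin promoter.
Hamp, chr7:30944030-30944179, minus strand: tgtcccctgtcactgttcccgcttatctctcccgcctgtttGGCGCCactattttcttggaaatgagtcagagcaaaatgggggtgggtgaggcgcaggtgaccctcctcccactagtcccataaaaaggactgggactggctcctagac
Hamp2, chr7:30924182-30924331, minus strand: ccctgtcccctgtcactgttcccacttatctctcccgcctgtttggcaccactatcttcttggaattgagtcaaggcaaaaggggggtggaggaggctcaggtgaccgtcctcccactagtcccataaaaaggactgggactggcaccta
Shifted by 3 bases, the windows shared 135 of 147 bases (91.8%). One of the 12 differences falls in the element, G4A counted from the first base of GGCGCC in Hamp, so the Hamp2 window holds no match. GGCGCC, which is its own reverse complement, was found in 7 of 17 members of the hepcidin list with a promoter in the RefSeq table (41.2%), against 13.4% of 27025 genes of that table. Of the 7, 4 were called, as were 6 of the 10 without a match. A match is a description of letters and not a measured site.

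Called genes of the SMAD branch were mostly higher. Atoh8, a transcription factor gene induced by BMP signals in liver, stood at 21, 24.2 and 23 CPM and at 59.3, 73.3 and 53.9 CPM (1.45, SE 0.15, adjusted p = 4.59e-05). Smad7, the inhibitory SMAD that closes the feedback loop, stood at 13.8, 15.4 and 12.1 CPM and at 34.6, 58.8 and 45.7 CPM (1.76, SE 0.41, adjusted p = 0.00594). In both genes the 3 mice of the cellulose diet lay above the 3 of the 50 ppm diet. Id1, the classic BMP target, stood at 5.14, 5.8 and 4.64 CPM and at 30.8, 39.5 and 44.8 CPM (2.89, SE 0.65, adjusted p = 0.00538). Smad6 rose by 1.02 (adjusted p = 0.00103) and Smad9, the third receptor-activated SMAD of the BMP branch, by 1.41 (adjusted p = 0.00301). Tmprss6, the protease that dampens BMP signalling in hepatocytes, stood at 439, 371 and 398 CPM and at 288, 291 and 306 CPM and fell (-0.45, SE 0.09, adjusted p = 0.00275), but on log2(TPM + 1) its adjusted p was 0.0512. The transferrin receptor Tfr2 stood at 408, 359.9 and 364 CPM and at 415, 312 and 304 CPM and was not called (-0.14, SE 0.13, adjusted p = 0.479). On log2(TPM + 1), 10 members were called higher and 0 lower.

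Among genes of iron storage, transport and heme breakdown, 13 of 31 were called higher and 5 lower (median 0.27), and 3 lower without mouse 1 of the 50 ppm diet or mouse 2 of the cellulose diet. The lower count was also 3 by library size alone, and it was 1 on log2(TPM + 1). Ftl1, the light chain of ferritin, stood at 1869, 1994 and 1934 CPM and at 5364, 5395 and 4516 CPM, a 2.63-fold rise (1.4, SE 0.12, adjusted p = 1.71e-05). The heavy chain Fth1 stood at 885, 959 and 973 CPM and at 1178, 1126 and 891 CPM and was not called (0.18, SE 0.11, adjusted p = 0.244). Ferritin pseudogenes can share reads with Ftl1, so its level is uncertain. Slc40a1, the gene of ferroportin, stood at 122, 132 and 154 CPM and at 559.8, 462 and 500.2 CPM (1.9, SE 0.16, adjusted p = 1.48e-05). Hmox1, the heme oxygenase that frees iron from heme, stood at 6.78, 9.67 and 13.6 CPM and at 71.8, 57.6 and 81.7 CPM, a 6.98-fold rise (2.8, SE 0.52, adjusted p = 0.00164). Neither gene overlapped between the groups.

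**Figure D2:**
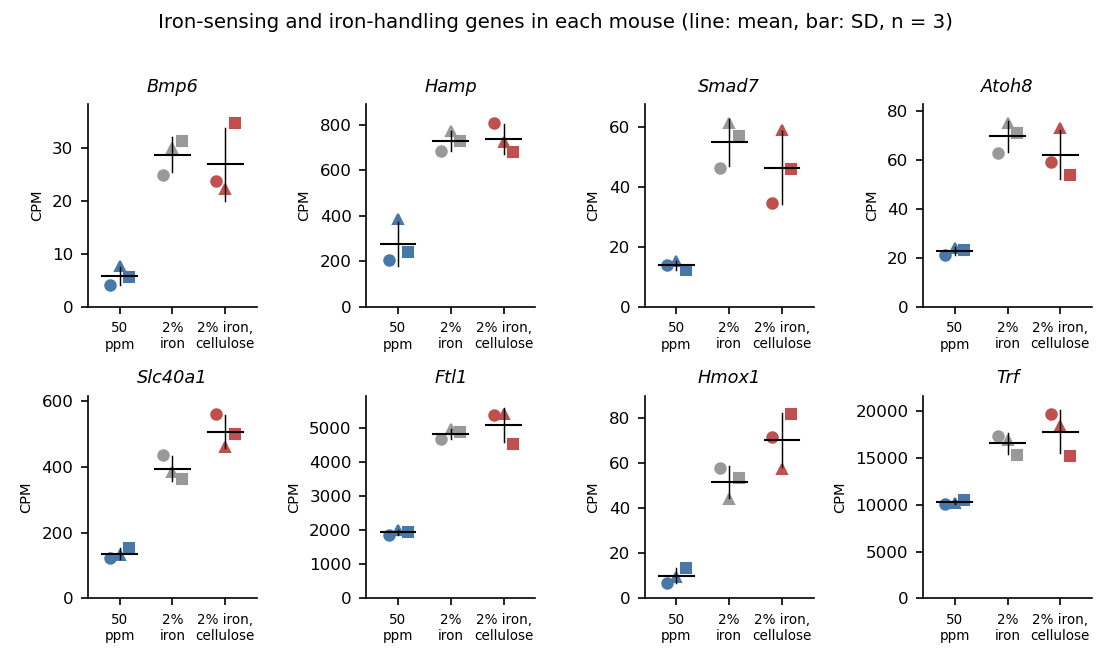
Levels in CPM of 8 iron genes in each mouse of the 50 ppm, 2% iron and 2% iron with cellulose groups; symbols are mice, lines means and bars SD over 3 mice. In all 8 genes the cellulose mice lie above the 50 ppm mice, with Bmp6 from 4.07, 7.64 and 5.72 to 23.9, 22.2 and 34.9 CPM and Slc40a1 from 122, 132 and 154 to 559.8, 462 and 500.2 CPM.

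Among the plasma proteins of the iron list, Trf, Hpx and Cp were called higher and Hp, haptoglobin, was not called (0.35, SE 0.22, adjusted p = 0.263). Trf, transferrin, stood at 10107, 10255 and 10513 CPM and at 19697, 18494 and 15264 CPM (0.79, SE 0.15, adjusted p = 0.00163). Hpx, hemopexin, which binds free heme, rose by 0.89 (adjusted p = 0.00677), and Cp, the plasma ferroxidase ceruloplasmin, by 0.59 (adjusted p = 0.000887). Slc39a14, the ZIP14 importer of iron not bound to transferrin, rose by 0.61 (adjusted p = 0.00926), and Slc48a1, which moves heme out of the lysosome, by 0.71 (adjusted p = 0.000149). Lcn2, a siderophore-binding protein also made in inflammation, stood at 5.33, 15.3 and 6.63 CPM and at 162, 100.1 and 70.2 CPM (3.62, SE 0.72, adjusted p = 0.00261). Steap3, the reductase that works with transferrin uptake, fell (-0.66, SE 0.14, adjusted p = 0.00346). Tfrc, the transferrin receptor, stood at 9.6, 11.1 and 19.7 CPM and at 39.7, 24.8 and 15.4 CPM, groups that overlapped, and its call (0.97, SE 0.32, adjusted p = 0.0361) was lost without any 1 of 4 mice, those numbered 1 and 2 of both diets, with adjusted p from 0.00877 to 0.211 over the 6 omissions. Slc40a1 and Cd163, the receptor for hemoglobin bound to haptoglobin, also mark Kupffer cells. The 18 Kupffer cell markers summed to 455 to 615 CPM with 50 ppm and 1374 to 1756 CPM with the cellulose diet. Slc40a1 and Cd163 are themselves among the 18, so the sum is not independent of them. The part of those cells in the iron list was not tested.

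Of 32 heme synthesis and iron-sulfur cluster genes, 1 was called higher, Alas1, and 8 lower (median -0.17), a share of 28.1% that is near the share over all genes. The lower count depends on scaling and filter, since 2 were called lower by library size alone or with no filter, 4 with the 6 libraries alone and 1 on log2(TPM + 1), and it was 3 without mouse 1 and 4 without mouse 3 of the 50 ppm diet and 5 without any 1 mouse of the cellulose diet. Cisd1, an iron-sulfur protein of the outer mitochondrial membrane, stood at 94.5, 91.9 and 98.9 CPM and at 70.2, 72.2 and 68.1 CPM and fell (-0.44, SE 0.07, adjusted p = 0.000743) under every alternative. Alas1, the rate-limiting enzyme of hepatic heme synthesis, stood at 185, 256 and 179 CPM and at 818, 639.7 and 241 CPM. Its groups overlapped, since mouse 3 of the cellulose diet lay below mouse 2 of the 50 ppm diet, and its call (1.45, SE 0.41, adjusted p = 0.0174) was lost without mouse 1 or 3 of the 50 ppm diet or mouse 1 or 2 of the cellulose diet, with adjusted p from 0.00306 to 0.0869 over the 6 omissions. Of 7 tested erythroid markers, 5 were called higher and 1 lower, and their sum was 71.3 to 113.4 CPM with 50 ppm and 169.8 to 441 CPM with the cellulose diet. Hba-a2, an alpha globin whose copies can share reads, stood at 4.65, 7.06 and 2.73 CPM and at 23.6, 28.6 and 68.6 CPM, highest in mouse 3. Alas2, the erythroid form of the heme enzyme, stood at 86.9, 46.2 and 49.7 CPM and at 9.58, 10.1 and 11.7 CPM and fell (-2.54, SE 0.26, adjusted p = 4.45e-05). The part of red cell RNA in the heme genes was not tested.

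Antioxidant and conjugation genes driven by NRF2 had called members in the higher direction, with 16 of 28 members called higher and 0 lower (median 0.61). The higher count was 12 without mouse 1 of the 50 ppm diet or mouse 2 of the cellulose diet. Without mouse 2 of the 50 ppm diet 1 member, Gstp1, was called lower (-0.97, adjusted p = 0.0406). Nqo1, a quinone reductase and standard NRF2 target, stood at 2.81, 3.48 and 3.89 CPM and at 18.8, 19.4 and 9.7 CPM (2.22, SE 0.30, adjusted p = 0.000222). Gstm3, a glutathione transferase, stood at 19.9, 24.3 and 19.2 CPM and at 74.2, 112.1 and 70.8 CPM (2.02, SE 0.26, adjusted p = 0.000177), and the groups of both genes did not overlap. Srxn1, which restores peroxiredoxins, rose by 1.35 (adjusted p = 0.000256). Gclc, the catalytic subunit of the first step of glutathione synthesis, rose by 0.91 (adjusted p = 0.00209), and Gsr, glutathione reductase, by 0.56 (adjusted p = 0.00069). Akr1b8, an aldo-keto reductase, stood at 1.94, 2.61 and 1.82 CPM and at 22.7, 19.5 and 23.3 CPM, the largest change of the list (3.36, SE 0.56, adjusted p = 0.000807).

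Ugdh, which makes the sugar donor for glucuronidation, stood at 90.8, 91.3 and 91.6 CPM and at 238, 259.5 and 162 CPM (1.27, SE 0.22, adjusted p = 0.00107). Txnrd1, thioredoxin reductase, stood at 101.9, 112.2 and 103.7 CPM and at 131, 157 and 125 CPM (0.38, SE 0.10, adjusted p = 0.0119), a call lost without mouse 2 of the cellulose diet (adjusted p = 0.0638). Their promoters are shown as examples of called members of the list that hold TGACNNNGC before the start, the core of the antioxidant response element bound by NRF2. Each window holds the 150 bases before a RefSeq start of GRCm38.p6, 5′ to 3′, with matches on either strand in capitals.
Ugdh, chr5:65435843-65435992, minus strand: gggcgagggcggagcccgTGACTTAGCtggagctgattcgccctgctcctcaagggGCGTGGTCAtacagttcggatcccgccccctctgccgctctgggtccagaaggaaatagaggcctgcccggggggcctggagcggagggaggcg
Txnrd1, chr10:82859056-82859205, plus strand: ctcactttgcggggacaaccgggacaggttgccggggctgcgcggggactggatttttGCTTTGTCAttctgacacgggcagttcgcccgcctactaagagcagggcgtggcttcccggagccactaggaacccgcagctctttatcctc
Ugdh holds 2 matches, 1 on each strand, and Txnrd1 holds 1 at this start, which is 1 of 3 RefSeq starts of the gene. In the full windows of 300 bases, 10 of 25 members with a promoter held a match (40%), against 14% of 27025 genes, and 4 of the 10 were called against 9 of the 15 without one. Both strands were searched.

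Targets of ATF4, the transcription factor of the integrated stress response, were called in the higher direction alone, with 11 of 20 members called higher and 0 lower (median 0.90). Psat1, an enzyme of serine synthesis, stood at 0.485, 0.58 and 0.663 CPM and at 4.11, 8.12 and 3.23 CPM (3.13, SE 0.52, adjusted p = 0.000862). Asns, asparagine synthetase, stood at 1.65, 1.74 and 0.746 CPM and at 4.19, 6.7 and 4.24 CPM (1.88, SE 0.39, adjusted p = 0.00329), and Atf3, a stress-induced transcription factor, at 0.0969, 0.483 and 0.249 CPM and 2.74, 1.76 and 2.7 CPM (3.08, SE 0.70, adjusted p = 0.00541). All 3 genes were separate between the groups. Vldlr, a lipoprotein receptor on the list, rose by 2.18 (adjusted p = 0.00494) and Sesn2, a stress sensor, by 0.73 (adjusted p = 0.0046). The count called higher was 7 without mouse 1 or without mouse 2 of the 50 ppm diet. It was 5, of 11 members tested, with at least 10 counts in every library. Members near 0 with 50 ppm, such as Atf3, passed the count filter only through other groups, so they could hardly be called lower. With DESeq2 or with the 6 libraries alone, 1 member was called lower. On the diet with 2% iron and no named fibre, 2 members were called against the same 50 ppm mice, where 15.7% of all genes were called, 8.52% higher and 7.17% lower. The direct contrast of the 2 iron-loaded diets called 0 of the 20 members. The difference of Asns between these diets was 2.1 (adjusted p = 0.0578), which missed the threshold.

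Targets of p53 held 5 of 17 members called higher (29.4%, against 15.4% of all genes) and 0 lower (median 0.32). Eda2r, a death receptor of the TNF family, stood at 0.291, 0.483 and 0.58 CPM and at 1.85, 3.53 and 3.31 CPM (2.64, SE 0.47, adjusted p = 0.0012), and Ptp4a3, a phosphatase, rose by 2.97 (adjusted p = 0.000532). Cdkn1a, the main p53 target in cell cycle arrest, stood at 12.7, 96.5 and 21 CPM and at 123, 104.6 and 88.8 CPM and was not called (1.29, SE 0.66, adjusted p = 0.158). Mouse 2 of the 50 ppm diet was far above the other 2, and without it the change was 2.64 and called (adjusted p = 0.00898). Metallothionein and metal transport genes held 5 of 18 members called higher and 2 lower (median 0.01), and 8 of the 18 changes were negative. Mt2, a metallothionein that binds zinc and copper, stood at 7.56, 16.7 and 16.7 CPM and at 354, 101.4 and 111.7 CPM (3.78, SE 0.93, adjusted p = 0.00818), with mouse 1 of the cellulose diet far above the other 2. Atp7a, a copper exporter, rose by 1.01 (adjusted p = 0.00131). Of 17 ferroptosis regulators 4 were called higher and 2 lower (median 0.22), and 1 lower without mouse 3 of the 50 ppm diet or mouse 2 of the cellulose diet and under 5 other alternatives. Alox12, a lipoxygenase, stood at 1.36, 0.677 and 0.497 CPM and at 5.8, 2.82 and 7.93 CPM and rose (2.72, SE 0.62, adjusted p = 0.00563).

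Kupffer cell genes were mostly called, with 15 of 18 members higher and 0 lower (median 1.75), and with 15 higher under each omission of 1 mouse. Marco, a scavenger receptor, stood at 2.42, 2.03 and 5.97 CPM and at 49.3, 37.1 and 54.1 CPM (3.72, SE 0.63, adjusted p = 0.000933). Vsig4, a complement receptor of resident macrophages, stood at 8.92, 12.8 and 14.4 CPM and at 47.3, 41.2 and 58.9 CPM (2.03, SE 0.26, adjusted p = 0.000158). Clec4f, the most specific Kupffer cell marker in the mouse, stood at 35.9, 53.7 and 54.2 CPM and at 126, 131 and 189 CPM (1.63, SE 0.21, adjusted p = 0.000175). In each of the 3 genes every cellulose mouse was above every 50 ppm mouse. C1qb, a complement subunit made by macrophages, rose by 1.88 (adjusted p = 1.83e-05) and Csf1r, the receptor for their growth factor, by 1.74 (adjusted p = 7.92e-05). In whole liver, more cells of a type and more RNA per cell cannot be told apart.

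Genes of activated and recruited phagocytes had called members in the higher direction, with 12 of 22 called higher and 0 lower (median 1.38). The higher count was 7, of 13 members tested, with at least 10 counts in every library. Members near 0 with 50 ppm passed the count filter only through other groups, so they could hardly be called lower. Gpnmb, found in lipid-laden macrophages, stood at 0.485, 0.387 and 3.07 CPM and at 8.37, 6.0 and 10.2 CPM (2.59, SE 0.65, adjusted p = 0.00939), and without mouse 3 of the 50 ppm diet, its highest, the change was 4.2. Mmp12, a macrophage elastase, stood at 1.55, 2.42 and 3.48 CPM and at 9.42, 12.5 and 10.2 CPM (2.09, SE 0.31, adjusted p = 0.000444), and its difference from the 2% diet with no named fibre was 1.74 (adjusted p = 0.0511), which missed the threshold. Cd68, a lysosomal glycoprotein of phagocytes, rose by 1.99 (adjusted p = 0.000234). Trem2, a receptor of lipid-associated macrophages, stood at 3.0, 1.55 and 2.32 CPM and at 2.9, 3.35 and 3.93 CPM and was not called (0.57, SE 0.34, adjusted p = 0.224). On log2(TPM + 1) it was called (1.07, adjusted p = 0.000535). Lysosomal genes held 18 of 33 members called higher and 1 lower (median 0.40). Ctss, a cathepsin of antigen-presenting cells, rose by 1.83 (adjusted p = 0.000163), Hexa, a subunit of hexosaminidase, by 0.88 (adjusted p = 1.61e-05), and Cd63, a membrane protein of late endosomes and lysosomes, stood at 2.42, 3.87 and 5.3 CPM and at 25.2, 27.4 and 20.7 CPM (2.64, SE 0.66, adjusted p = 0.00909). Ctss and Cd63 are also phagocyte genes, and the part of phagocytes in the lysosomal list was not tested.

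**Figure D3:**
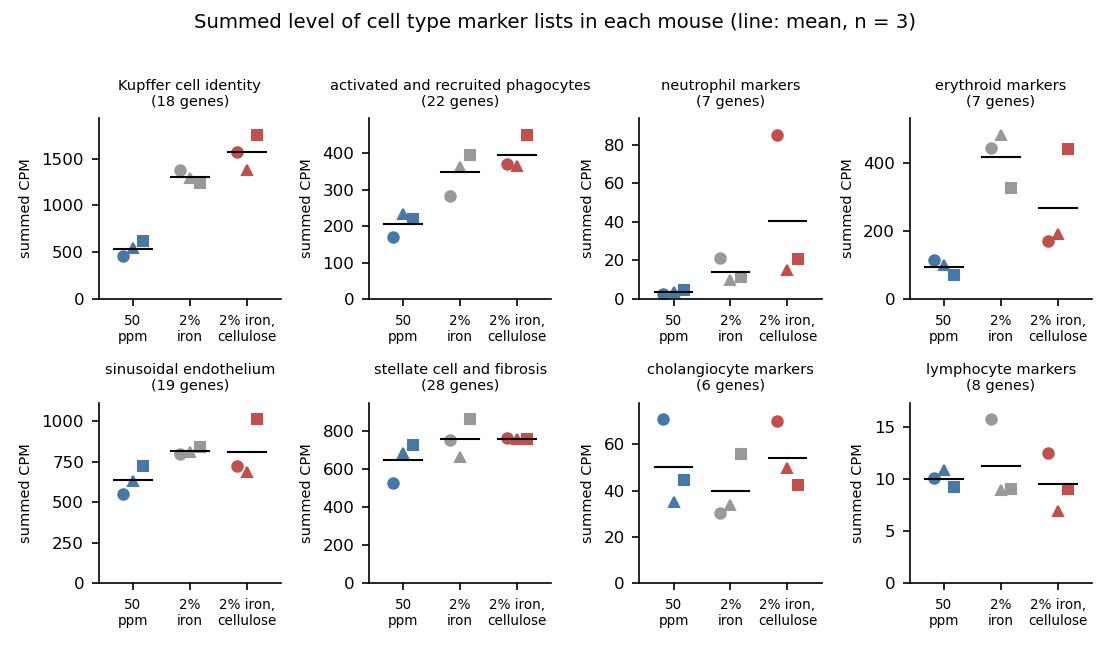
Summed CPM of 8 cell type marker lists in each mouse of the 50 ppm, 2% iron and 2% iron with cellulose groups; symbols are mice and lines means over 3 mice. Kupffer cell markers, Slc40a1 among them, summed to 455 to 615 CPM with 50 ppm and 1374 to 1756 CPM with the cellulose diet. Cholangiocyte and lymphocyte sums overlapped between these groups.

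Chemokine genes held 5 of 13 tested members called higher and 1 lower, and 7 others were too low to test. Without mouse 3 of the 50 ppm diet 3 were called higher. Ccl6, a macrophage chemokine, stood at 3.2, 5.22 and 5.05 CPM and at 32, 30.4 and 46.5 CPM (3.01, SE 0.38, adjusted p = 0.000163). Cxcl16 rose by 1.05 (adjusted p = 0.000514) and Cxcl12 fell by 0.70 (adjusted p = 0.00155). Neutrophil genes were near 0 with 50 ppm, where 7 tested markers summed to 2.71 to 4.89 CPM, and summed to 14.8 to 85.1 CPM with the cellulose diet. Of the 7, 6 were called higher, against 15.4% of all genes, and 6 other markers were too low to test. The count was as low as 1 under another processing alternative. Markers near 0 with 50 ppm passed the count filter only through other groups, so they could hardly be called lower. S100a9 stood at 0.0969, 0.193 and 0.414 CPM and at 19.4, 3.0 and 2.62 CPM (5.05, SE 1.15, adjusted p = 0.00552), highest in mouse 1 of the cellulose diet, without which the change was 3.47 (adjusted p = 0.03). Without that mouse 4 of the 7 were called. Ltf, lactoferrin, was at 0 in all 50 ppm mice and at 10.9, 0.618 and 1.16 CPM with the cellulose diet, at least 15.3-fold higher against 3 counts in each 50 ppm library, or at least 3.21-fold without mouse 1 of the cellulose diet. Mpo, myeloperoxidase, stood at 0, 0.0967 and 0.0829 CPM and at 11.1, 0.706 and 4.39 CPM, also highest in mouse 1. Lymphocyte markers summed to 9.2 to 10.8 CPM and 6.97 to 12.5 CPM, with 0 of 8 called higher and 1 lower, Cd4, whose call was lost by library size alone, on log2(TPM + 1), and without mouse 1 of the 50 ppm diet or mouse 1 or 2 of the cellulose diet.

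Interferon-stimulated genes had called members in the higher direction, with 13 of 22 called higher and 0 lower (median 1.14). Oasl1, a regulator of interferon production, stood at 19.1, 18.7 and 10.4 CPM and at 51, 51.3 and 55.2 CPM (1.71, SE 0.20, adjusted p = 9.61e-05). Irf7, the factor that amplifies the interferon response, stood at 46, 40.5 and 29.8 CPM and at 112.4, 127 and 128 CPM (1.66, SE 0.32, adjusted p = 0.00218), and both genes were separate between groups. Rsad2, the antiviral protein viperin, rose by 1.85 (adjusted p = 0.00136) and Ifit2 by 1.85 (adjusted p = 0.00219). Acute phase genes split, with 6 of 24 called higher and 3 lower (median 0.12). The 3 that fell were the serum amyloids Saa1, Saa2 and Saa4, close copies of one another, of which Saa1 stood at 72.5, 121 and 51.3 CPM and at 7.0, 11.6 and 12.6 CPM (-2.97, SE 0.62, adjusted p = 0.00337). Apcs, serum amyloid P, rose by 1.59 (adjusted p = 0.00926). The count called higher was 3 without mouse 3 of the 50 ppm diet or mouse 1 of the cellulose diet.

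Matrix and stellate cell genes held 7 of 28 called higher (25%, against 15.4% of all genes) and 0 lower (median 0.09). The higher count was 4 without mouse 1 of the 50 ppm diet. Col1a1, the main fibrillar collagen of scar, stood at 13.6, 12.4 and 21 CPM and at 8.86, 10.4 and 8.01 CPM and was not called (-0.79, SE 0.45, adjusted p = 0.208), but passed with the 6 libraries alone (adjusted p = 0.029). Col4a1, a collagen of basement membranes, stood at 37, 50.9 and 61.4 CPM and at 81.8, 88.1 and 85.6 CPM (0.77, SE 0.16, adjusted p = 0.00312). Tgfb1, the profibrotic cytokine, rose by 1.1 (adjusted p = 0.00415), and Loxl2, which cross-links collagen, by 0.88 (adjusted p = 0.00796). Sinusoidal endothelium held 3 of 19 called higher (15.8%, near the 15.4% of all genes) and 0 lower (median 0.16). Its higher count was 5 without mouse 1 of the cellulose diet or by library size alone. Stab2, a scavenger receptor, was among the 3 (0.75, SE 0.18, adjusted p = 0.00809).

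Cell cycle genes had called members in the higher direction, with 13 of 21 called higher and 0 lower (median 1.1). The count was 8 without mouse 1 or mouse 3 of the 50 ppm diet and 7 without mouse 1 of the cellulose diet. Ccnd1, cyclin D1, which starts the entry of hepatocytes into the cycle, stood at 20.1, 15.3 and 12.3 CPM and at 97.7, 213 and 158 CPM (3.3, SE 0.68, adjusted p = 0.00322). Mki67, the proliferation antigen, stood at 1.65, 1.35 and 1.49 CPM and at 11.8, 2.47 and 10.6 CPM (2.46, SE 0.55, adjusted p = 0.0052), and the groups of both genes were separate. Mcm3 and Mcm6, subunits of the replicative helicase, rose by 1.48 (adjusted p = 0.00055) and 2.2 (adjusted p = 0.000391). Cdk1, the mitotic kinase, stood at 1.07, 1.06 and 0.414 CPM and at 1.85, 1.24 and 1.23 CPM and was not called (0.78, SE 0.40, adjusted p = 0.165). Kupffer cells can divide too, and the cell type behind these transcripts was not tested.

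Of the 12 largest falls among called genes whose groups did not overlap, 11 were on the list of male-biased genes. Of 27 tested members, 26 were called lower and 0 higher (median -6.43). The count called lower was 25 to 27 with 1 mouse left out and as low as 17 under another processing alternative. Members near 0 with the cellulose diet passed the count filter only through other groups. They could hardly be called higher, and the sizes of their falls rest on few counts. Gstp1 was the member not called (-0.72, SE 0.31, adjusted p = 0.099), though it was called without mouse 2 of the 50 ppm diet (adjusted p = 0.0406). Mup19, a major urinary protein, stood at 7559.6, 4228 and 4028 CPM and at 7.16, 6.97 and 18.2 CPM, a 487-fold fall with the smallest adjusted p of all genes (-8.93, SE 0.54, adjusted p = 2.11e-06). Hsd3b5, a male-specific steroid reductase, stood at 164, 51.6 and 78.9 CPM and at 0.242, 0 and 0.77 CPM (-8.08, SE 0.74, adjusted p = 1.8e-05). Cyp4a12a, a fatty acid hydroxylase, stood at 553, 267 and 253 CPM and at 4.35, 2.56 and 1.39 CPM (-7.02, SE 0.51, adjusted p = 6.33e-06). In each gene the lowest 50 ppm mouse was above the highest cellulose mouse, and mouse 1 of the 50 ppm diet was the highest. Elovl3, a fatty acid elongase, fell by 6.43 on the log2 scale (adjusted p = 6.26e-05) and Slco1a1, an organic anion carrier, fell by 3.65 (adjusted p = 1.48e-05). Major urinary protein genes are near-identical copies, so reads can be split between them and single members are less certain than the family.

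Female-biased genes had called members in the other direction, with 12 of 23 called higher and 0 lower (median 2.54, or 1.49 with Cyp3a41b, which was at 0 in all 50 ppm mice, set against 3 counts per library). Another 3 were too low to test. Members near 0 with 50 ppm passed the count filter only through other groups, so they could hardly be called lower. Cyp2b9 stood at 0.0969, 2.8 and 1.57 CPM and at 239, 285 and 297 CPM (7.5, SE 1.63, adjusted p = 0.00426), and Cyp2a4, a steroid hydroxylase with a close copy, at 0.194, 0.29 and 0.58 CPM and 96.6, 102.6 and 160.5 CPM (8.32, SE 1.81, adjusted p = 0.00426). Cux2, a female-specific repressor of male genes, stood at 0.775, 0.387 and 2.15 CPM and at 45.2, 30.3 and 27.9 CPM (4.9, SE 1.0, adjusted p = 0.00294). The 3 cellulose mice lay above the 3 of the 50 ppm diet in each of these genes. The count was 7 with DESeq2 and 7 without mouse 1 of the 50 ppm diet, and as low as 3 under another processing alternative. Genes of the growth hormone axis held 3 of 18 called higher, a share near the 15.4% of all genes, and 4 lower (median 0.02). The lower count was 2 without mouse 3 of the 50 ppm diet or on log2(TPM + 1). Ghr, the growth hormone receptor, stood at 553, 434 and 515 CPM and at 241, 252 and 263 CPM and fell (-0.99, SE 0.13, adjusted p = 0.000202), and Igfbp2 stood at 390.1, 319 and 271 CPM and at 82.5, 86.6 and 135 CPM and fell (-1.69, SE 0.24, adjusted p = 0.000358). Igf1, the main effector, stood at 467, 396 and 566 CPM and at 537, 511 and 356 CPM and was not called (-0.03, SE 0.16, adjusted p = 0.928), with a sign that changed under library size alone.

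**Figure D4:**
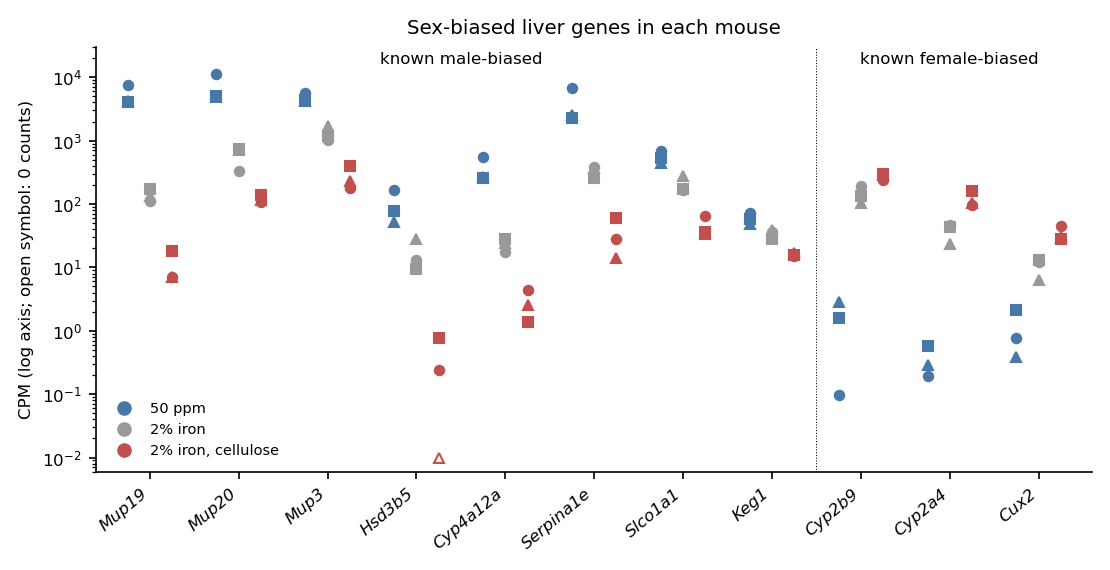
Levels in CPM on a log axis of 8 known male-biased and 3 known female-biased genes in each mouse of the 50 ppm (blue), 2% iron (grey) and 2% iron with cellulose (red) groups; symbols are mice and the open symbol marks 0 counts. Mup19 falls from 7559.6, 4228 and 4028 CPM with 50 ppm to 112.1, 133 and 172 CPM with 2% iron and 7.16, 6.97 and 18.2 CPM with cellulose.

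Set against the 2% diet with no named fibre, 11 of 13560 genes were called (0.0811%), 1 higher with cellulose (0.00737%) and 10 lower (0.0737%), and 8 of the 10 were on the male-biased list. Both iron-loaded groups are read against the same 50 ppm mice, so this direct contrast is the test of whether their changes differ. Mup19 stood at 112.1, 133 and 172 CPM with 2% iron, between the 50 ppm and cellulose values, and differed from the cellulose diet by -3.69 (SE 0.43, adjusted p = 0.00708). Hsd3b5 stood at 12.9, 28 and 9.39 CPM and differed by -5.53 (SE 0.78, adjusted p = 0.014), and Slco1a1 at 167, 273 and 170.3 CPM and by -2.2 (SE 0.30, adjusted p = 0.00979). In all 3 genes the 2% mice lay between the other groups without overlap. Serpina4-ps1, a serpin pseudogene off the list, stood at 24.1, 22.9 and 14.4 CPM with 50 ppm, 19.8, 12.8 and 6.49 CPM with 2% iron and 0.644, 0.176 and 0.308 CPM with cellulose. Ddah1, which breaks down methylated arginine, went the other way, at 114.0, 89.9 and 119.8 CPM with 50 ppm, 19.6, 35.9 and 27.6 CPM with 2% iron and 70.6, 102.2 and 76.9 CPM with cellulose. Its cellulose level was not called against 50 ppm (-0.37, SE 0.19, adjusted p = 0.156) and was above that of the 2% diet (1.59, SE 0.20, adjusted p = 0.00708). Without mouse 2 of the cellulose diet 0 genes were called in this contrast by edgeR, with 1227 at an unadjusted p under 0.05, and without mouse 3 of it 212 were. DESeq2, on all mice, called 219.

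Keg1, a male-biased acyltransferase-like gene, stood at 73.3, 48.4 and 58 CPM with 50 ppm, 36, 39.1 and 27.9 CPM with 2% iron and 15, 16.6 and 15.9 CPM with cellulose, and fell from 50 ppm to cellulose (-1.92, SE 0.18, adjusted p = 2.49e-05). Its promoter is shown because it was the 1 member of 20 on the male-biased list with a RefSeq promoter that held TTCNNNGAA (5%), the palindromic core bound by STAT5, the factor that carries the growth hormone signal. On the female-biased list 3 of 17 held it (17.6%), against 9.55% of 27025 genes. The 200 bases before the start in GRCm38.p6 are given 5′ to 3′ with both matches in capitals.
Keg1, chr19:12695590-12695789, plus strand: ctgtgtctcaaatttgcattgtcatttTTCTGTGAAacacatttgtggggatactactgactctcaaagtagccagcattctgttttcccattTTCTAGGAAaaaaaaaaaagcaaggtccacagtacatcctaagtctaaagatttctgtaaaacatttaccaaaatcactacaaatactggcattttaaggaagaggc
The other 19 windows of the list held no such letters, which says nothing of sites elsewhere.

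Drug-metabolising cytochromes P450 held 5 of 41 members called higher and 12 lower (median -0.18). The higher share was below the 15.4% of all genes. It was 3 members without mouse 1 or mouse 3 of the 50 ppm diet or mouse 3 of the cellulose diet. Cyp2e1, which oxidises ethanol and acetaminophen, stood at 6906, 5409 and 6679 CPM and at 2733, 2719 and 2888 CPM (-1.19, SE 0.13, adjusted p = 7.81e-05). Cyp2f2 stood at 1021, 719 and 704 CPM and at 198, 224 and 271 CPM (-1.82, SE 0.20, adjusted p = 6.69e-05), and Cyp2u1 at 63.3, 37.1 and 37.3 CPM and 6.36, 7.67 and 11.6 CPM (-2.42, SE 0.31, adjusted p = 0.000161). All 3 fell without overlap of the groups. Cyp2a22 rose (3.75, SE 0.74, adjusted p = 0.00248), as did Cyp2b10, the usual readout of the xenobiotic receptor CAR, which stood at 0.582, 1.35 and 0.0829 CPM and at 20.9, 26.6 and 22.8 CPM (5.16, SE 1.21, adjusted p = 0.00632). Nr1i2, the gene of the receptor PXR, rose by 0.52 (adjusted p = 0.00307).

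Among bile acid synthesis and transport genes, 13 of 24 were called lower and 2 higher (median -0.42), and 1 higher without mouse 1 or 2 of the 50 ppm diet or mouse 3 of the cellulose diet. Cyp7a1, the rate-limiting enzyme of the classic pathway, stood at 335, 148 and 353 CPM and at 41.7, 36.7 and 53.5 CPM, a 6.33-fold fall (-2.66, SE 0.41, adjusted p = 0.000558). Cyp8b1, which sets the share of cholic acid, stood at 765, 601 and 536 CPM and at 196, 177 and 229 CPM (-1.66, SE 0.20, adjusted p = 0.000124). In both, every cellulose mouse was below every 50 ppm mouse. Baat and Slc27a5, which conjugate bile acids to amino acids, changed by -0.95 (adjusted p = 6.77e-05) and -0.79 (adjusted p = 9.61e-05), and Slco1b2, a basolateral uptake carrier, by -1.03 (adjusted p = 0.00106). Nr0b2, the repressor SHP that bile acids induce, also fell (-1.78, SE 0.46, adjusted p = 0.0102). Abcc3, a basolateral exporter, rose by 0.59 (adjusted p = 0.0088).

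Fatty acid oxidation and PPARA targets held 10 of 31 called lower (32.3%, against 14.3% of all genes) and 0 higher (median -0.38). The count was 2 on log2(TPM + 1) and 6 by library size alone. It was 5 without mouse 1 of the 50 ppm diet or mouse 1 or 3 of the cellulose diet, and 6 without mouse 2 of either. Other processing called up to 15 members lower and up to 3 higher, and up to 1 was called higher with 1 mouse left out. Acsl1, which activates long-chain fatty acids, stood at 1934, 1362 and 1429 CPM and at 635, 658 and 679 CPM (-1.26, SE 0.26, adjusted p = 0.00303), and Acaa1b, a peroxisomal thiolase, fell by 1.44 (adjusted p = 0.00114). Cholesterol synthesis held 5 of 25 called lower (20%, against 14.3% of all genes) and 0 higher (median -0.63). The count was 12 with the 6 libraries alone, 3 by library size alone or on log2(TPM + 1), and 2 without mouse 2 of the 50 ppm diet or mouse 1 of the cellulose diet. It was 3 without mouse 1 or 3 of the 50 ppm diet or mouse 2 of the cellulose diet. Tm7sf2, a sterol reductase, stood at 88.3, 117 and 105.7 CPM and at 24.8, 25.1 and 45 CPM (-1.71, SE 0.28, adjusted p = 0.000816). De novo lipogenesis held 2 of 20 called lower, Agpat2 and Mlxipl, 10% of the list. Fasn, fatty acid synthase, stood at 461, 1136 and 629 CPM and at 659, 1295 and 1756 CPM, groups that overlapped and were not called (0.74, SE 0.51, adjusted p = 0.299).

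Genes of lipid uptake and droplets held 7 of 16 called higher and 2 lower (median 0.54). Apoa4, an apolipoprotein that rises with hepatic triglyceride, stood at 1239, 1822 and 1278 CPM and at 10215, 8937 and 5599 CPM, a 5.71-fold rise (2.51, SE 0.30, adjusted p = 0.000125). Cd36, a fatty acid receptor, stood at 27.4, 65.4 and 63.6 CPM and at 170.0, 176 and 144 CPM (1.65, SE 0.27, adjusted p = 0.000835), and the groups of both genes were separate. Plin4, a droplet coat protein, rose by 2.09 (adjusted p = 0.00503), and Hsd17b13, a droplet enzyme of hepatocytes, by 0.92 (adjusted p = 0.00184). Cd36 is also made by macrophages and endothelium, whose part was not tested.

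**Figure D5:**
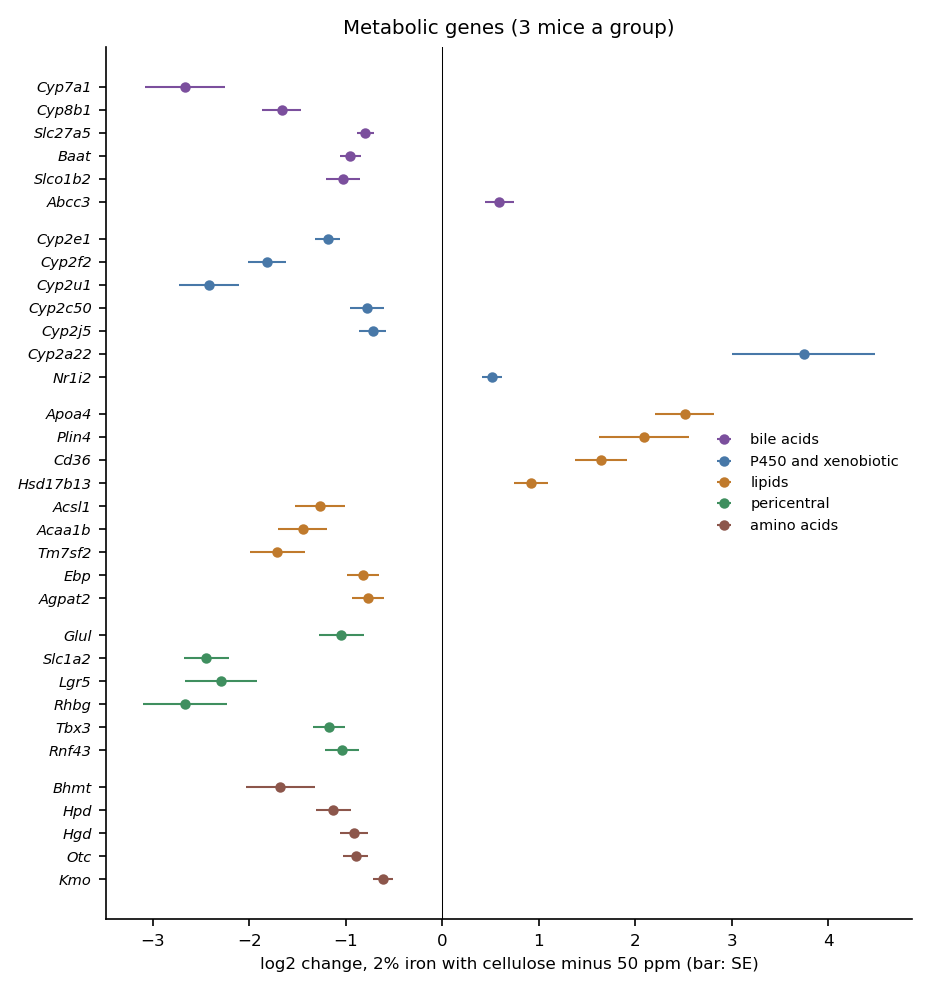
Points are log2 changes of the cellulose diet minus 50 ppm and bars their SE, for 33 called genes chosen from the metabolic lists. Cyp7a1 (-2.66), Slc1a2 (-2.44) and Cyp2e1 (-1.19) lie below 0, and Apoa4 (2.51) and Cd36 (1.65) above it.

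Pericentral genes, found around the central vein and driven by WNT signals, held 12 of 16 called lower and 1 higher (median -1.04), and 10 to 13 lower with 1 mouse left out. Slc1a2, a glutamate carrier of the innermost hepatocytes, stood at 154, 163 and 172 CPM and at 22.1, 24.4 and 43.3 CPM (-2.44, SE 0.23, adjusted p = 2.52e-05). Glul, glutamine synthetase, stood at 966, 1053 and 893 CPM and at 327, 357 and 726 CPM (-1.05, SE 0.23, adjusted p = 0.00486), highest among the cellulose mice in mouse 3. Lgr5, an R-spondin receptor of the WNT pathway, stood at 12.4, 9.67 and 15.2 CPM and at 2.25, 1.41 and 3.85 CPM (-2.29, SE 0.37, adjusted p = 0.000695), and Tbx3, a transcription factor, fell by 1.17 (adjusted p = 0.000334). In all 4 genes the groups were separate. Periportal genes held 5 of 16 called higher and 2 lower (median -0.03), and 3 higher without mouse 1 or 3 of the 50 ppm diet or mouse 2 of the cellulose diet. The lower count was 4 with the 6 libraries alone and 1 on log2(TPM + 1). The mitochondrial urea cycle gene Cps1 was not called (-0.42, SE 0.21, adjusted p = 0.143).

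Amino acid breakdown and the urea cycle held 12 of 26 called lower and 0 higher (median -0.43), and 6 lower without mouse 2 of either diet and on log2(TPM + 1). Up to 1 member was called higher under other processing. Hpd, a step of tyrosine breakdown, stood at 1430.0, 1521 and 1319 CPM and at 628, 582 and 742 CPM (-1.13, SE 0.18, adjusted p = 0.000663). Hgd, a later step, stood at 403, 454 and 400.4 CPM and at 191, 217 and 259 CPM (-0.91, SE 0.14, adjusted p = 0.000624), and every cellulose mouse was below every 50 ppm mouse in both. Otc, ornithine transcarbamylase of the urea cycle, fell by 0.90 (adjusted p = 0.000319), and Bhmt, which remethylates homocysteine, stood at 5203, 8022 and 3515 CPM and at 2212, 1360.5 and 1658 CPM (-1.68, SE 0.36, adjusted p = 0.00366). In glucose metabolism 6 of 24 were called higher and 4 lower (median 0.15), with 2 higher without mouse 1 and 3 without mouse 3 of the 50 ppm diet, and 3 without mouse 1 or 2 of the cellulose diet. Ldha, lactate dehydrogenase, stood at 684, 571 and 525 CPM and at 1636, 1232 and 867 CPM (1.07, SE 0.25, adjusted p = 0.00639), and Irs1, an insulin receptor substrate, at 27.5, 29.8 and 35.1 CPM and 9.82, 10.9 and 17.8 CPM (-1.26, SE 0.25, adjusted p = 0.00276).

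Nuclear genes of oxidative phosphorylation had called members in the lower direction, with 20 of 45 called lower and 0 higher (median -0.25). Library size alone left 8 calls, no filter 10, log2(TPM + 1) left 1 and omission of mouse 1 of the 50 ppm diet left 9. Omission of mouse 2 of the 50 ppm diet or mouse 1 of the cellulose diet left 10, and of mouse 3 of the cellulose diet 11. Cyc1, cytochrome c1, stood at 128, 128 and 125 CPM and at 89.4, 102.1 and 85.9 CPM and fell (-0.46, SE 0.11, adjusted p = 0.00587) under every alternative. The 13 subunits encoded in mitochondrial DNA held 1 call, mt-Nd1, higher and lost without mouse 3 of the 50 ppm diet (median -0.06).

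Clock genes varied among the cellulose mice. Of 19 members 3 were called higher and 2 lower, a share of 26.3% that is below that of all genes. The count called higher was 1 without mouse 1 or 2 of the 50 ppm diet or mouse 2 of the cellulose diet and 0 without mouse 1 of it, and the count called lower was 4 without mouse 3 of it. Per2, a negative arm of the clock, stood at 12.1, 8.12 and 14.6 CPM and at 35.2, 34 and 6.39 CPM and was not called (1.11, SE 0.57, adjusted p = 0.158), though without mouse 3 of the cellulose diet it was (1.56, adjusted p = 0.0244). Nfil3, a repressor of clock output, stood at 21.8, 29.2 and 21.2 CPM and at 7.49, 6.0 and 12.7 CPM and fell (-1.45, SE 0.30, adjusted p = 0.00316). Mice 1 and 2 of the cellulose diet were high in Per2 and mouse 3 was below the 50 ppm mice, and time of death is not given in the labels.

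Other genes with large or precise changes were mixed in function. Ttc39c stood at 398, 301 and 262 CPM and at 71.6, 61.6 and 59.3 CPM (-2.32, SE 0.17, adjusted p = 6.74e-06). Snx5, a sorting nexin of the endosome, stood at 34, 34 and 38.8 CPM and at 74.6, 68.8 and 71.1 CPM and rose 2.01-fold (1.0, SE 0.08, adjusted p = 7.78e-06), and Lad1 fell by 3.46 (adjusted p = 1.27e-05). Ffar4, a receptor for long-chain fatty acids, stood at 0.0969, 0.29 and 0.166 CPM and at 15.1, 13.6 and 4.77 CPM (5.85, SE 0.96, adjusted p = 0.00115). Epo, erythropoietin, was at 0 counts in all 50 ppm mice and at 2.09, 3.62 and 0.616 CPM with the cellulose diet, at least 7.64-fold higher against 3 counts in each 50 ppm library, or at least 4.9-fold without mouse 2 of the cellulose diet. Zbtb8b, a zinc finger gene, was also at 0 in all 50 ppm mice and at 2.42, 3.26 and 2.31 CPM with the cellulose diet, at least 9.64-fold higher on the same basis. Ism2, a secreted protein gene, stood at 0.194, 0 and 0.0829 CPM and at 4.51, 7.59 and 3.16 CPM (5.64, SE 1.14, adjusted p = 0.00287). Pitx3, a transcription factor gene and the 1 of the 12 largest falls off the male-biased list, stood at 6.88, 3.87 and 4.97 CPM and at 0, 0 and 0.077 CPM.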

How the data were processed

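RNA-seq libraries came from liver of 15 male C57BL/6J mice in 5 diet groups, and the labels describe 3 mice per group, so replicates are animals. The authors deposited expected counts and TPM per gene, made with kallisto 0.46 against mm10 per the submitters' processing notes. The counting annotation is not given in the sources used here. Estimated counts were rounded, filtered with filterByExpr and scaled by TMM, and tested in edgeR 4.0.16 (glmQLFit and glmQLFTest, R 4.3.3) over all 15 libraries with no covariate, so all groups share 1 estimate of the spread. Symbols and GRCm38 coordinates came from GENCODE vM21, which matched 34924 of 35274 identifiers. CPM was computed on TMM-scaled totals, and promoter sequences came from RefSeq. The deposited TPM values were used with limma 3.58.1 as an alternative, beside DESeq2 1.42.0, other scalings and filters, and omission of each mouse. Pseudo-alignment shares reads among near-identical genes, so members of the Mup, Cyp2, Gst, Saa and globin families are uncertain one by one.

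Tested on simulated counts for this comparison (13355 genes tested), the fit recovered 59.6% of 99 genes changed by 1 on the log2 scale and 91.9% of 99 changed by 2, and 6.83% of its calls were false. Far fewer genes were changed there than were called in the data, so these shares need not hold for the real comparison. Named genes are members of the gene lists, the 12 largest rises and falls among called genes without overlap and with a mean of at least 1 CPM, the 10 smallest adjusted p, and every gene called against the 2% diet, of which some are not reported here. Members and lists were chosen with earlier results of these data known.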

Additional observations from a re-analysis of the deposited data

Results flagged for a closer look

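The 11 genes called between the 2 iron-loaded diets are those whose change from 50 ppm differed between these diets, by the direct edgeR contrast. Lower with cellulose were Hsd3b5 (log2 difference -5.53, adjusted p = 0.014), Serpina4-ps1 (-5.06, adjusted p = 0.00708), Mup19 (-3.69, adjusted p = 0.00708), Serpina1e (-3.29, adjusted p = 0.0237) and Cyp4a12a (-3.08, adjusted p = 0.023). Also lower were Mup20 (-2.31, adjusted p = 0.0357), Mup3 (-2.26, adjusted p = 0.00936), Slco1a1 (-2.2, adjusted p = 0.00979), Ces3b (-1.77, adjusted p = 0.0223) and Keg1 (-1.12, adjusted p = 0.0357). Higher was Ddah1 (1.59, adjusted p = 0.00708). Without mouse 2 of the cellulose diet their adjusted p was above 0.05 in all 11.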

How the results depend on the processing

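The count against 50 ppm (4026) was within 1.5 times under other scalings, filters and DESeq2, and was 2657 on log2(TPM + 1), 2546 on log2(TPM + 0.1) and 2708 to 4206 with 1 mouse left out, highest without mouse 2 of the 500 ppm group and 3673 or fewer without a mouse of the groups compared. The share of its calls that were higher was 51.7%, against 69.8% by library size alone, 73.7% on log2(TPM + 1) and 72.5% on log2(TPM + 0.1). The count against the 2% diet (11) was 19 by library size alone, 51 with no filter, 26 with at least 10 counts in every library, 23 with the 6 libraries alone, 219 with DESeq2, 18 on both TPM scales and 0 to 212 with 1 mouse left out. It was 53 without mouse 2 of the 500 ppm group, which was left out after seeing the data. The count for 2% iron against 50 ppm was 1208 on log2(TPM + 1), 1161 on log2(TPM + 0.1) and 1003 to 2333 with 1 mouse left out, highest without that mouse of the 500 ppm group. Igf1, not called, changed sign, to 0.0837 by library size alone and from -0.144 to 0.129 with 1 mouse left out, positive without mouse 3 of either diet. The causes were not tested. No paired analysis was possible because the labels give no replicate numbers. With 3 mice a group, changes near 1 on the log2 scale were often missed in the simulated data, where few genes were changed. Depth limits genes of a few counts. With at least 10 counts in every library, lists of low genes had fewer members tested and called.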
